A study of Homo sapiens with 4 samples.

Results

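The forkhead box (FOX) and SRY-related HMG box (SOX) genes were taken as the protein-coding genes of GENCODE whose symbol is FOX, a letter and digits, or SOX and digits, with trailing letters allowed. This rule gave 66 of 20046 protein-coding genes, 47 FOX and 19 SOX. It used no measured value. It also took in FOXL2NB, a neighbour of FOXL2 that carries the name but codes for no forkhead protein, and it left out the FOXD4-like copies FOXD4L1, FOXD4L3, FOXD4L4, FOXD4L5 and FOXD4L6, in which no peak was found. The data were m6A meRIP-seq peaks of OE-19, an established cell line from adenocarcinoma of the esophagogastric junction, grown without any treatment named in the labels. The labels describe cells fixed with UV and lysed, whereas the study's methods describe purified and fragmented total RNA, so how the RNA was prepared is uncertain. The series held 2 m6A immunoprecipitation (IP) samples and 2 input samples. Each IP sample had its own peak list, and lists for the input were not analysed here. The study calls the replicates biological, and the labels do not say whether they were separate cultures.

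FOX proteins bind DNA through the forkhead, a winged-helix domain, and SOX proteins bind and bend DNA through the HMG box. Both families set cell fates: FOXA and SOX factors act in the gut endoderm, and the FOXO factors are held out of the nucleus by insulin and AKT signalling. N6-methyladenosine (m6A) is a base modification of mRNA that is placed mostly at adenines in short motifs such as GGAC, often in long exons and near stop codons, and that bears on mRNA stability and translation.

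A gene was counted as carrying a peak when a peak summit lay in one of its annotated exons. Fold enrichment is the ratio that the authors' peak caller gave at the summit, over its own background. For the members at the top of the order by fold enrichment, the GGAC closest to the summit of the stronger replicate is printed with 25 nt of hg38 reference sequence on the strand of the gene and GGAC in capitals. These show which letters lie under the strongest peaks of the families. Each lay inside a peak of both replicates, and the match is a description of the sequence and not a mapped modification site. The FOXO3B peak of replicate 1 that holds its stretch aligned to exons of FOXO3 with 100% identity. Its gene and region labels are therefore uncertain.

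FOXN2 (chr2:48346345-48346369, plus strand, coding sequence): ccactctagtGGACagtgagtcagc
FOXO1 (chr13:40558804-40558828, minus strand, 3′ UTR): ctgtagataaGGACtgtgccattgg
FOXL1 (chr16:86579547-86579571, plus strand, coding sequence): cgccttcaggGGACgaactcctagg
FOXP1 (chr3:70958882-70958906, minus strand, last exon of several transcripts): tgccaacgttGGACactgaggacgc
SOX8 (chr16:985712-985736, plus strand, 3′ UTR): cacagcccaaGGACcaaaggagggg
FOXO3B (chr17:18671073-18671097, minus strand, 3′ UTR): acttggacctGGACatgttcaatgg

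The adenine of the GGAC was 3 nt from the summit in FOXP1, 32 nt in FOXO3B, 47 nt in FOXL1, 49 nt in FOXO1, 62 nt in FOXN2 and 81 nt in SOX8. In the FOXP1 peak the motif thus sat almost at the summit, whereas in FOXN2 and SOX8 it lay outside the window of 50 nt used for the counts of GGAC given later.

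To learn how many of the factors carried a peak, the members were counted in each list. An exonic peak was found in 30 of 66 members in replicate 1 and in 30 of 66 in replicate 2, and they were the same 30 genes. This was 45.5% (95% Wilson confidence interval 34.0% to 57.4%). Intervals here and later cover counting error only. Of all protein-coding genes, 42.4% had an exonic peak in replicate 1, 34.1% in replicate 2 and 33.4% in both. The remaining 36 members had no exonic peak in either list. No member had a peak in 1 list only, whereas 8646 of all protein-coding genes had a peak in at least 1 list and 6686 in both. Because only lists of the IP group were analysed, and genes are not replicates, no test was made between the members and the other genes. The lists give no read numbers and no expression level, so sequencing depth is unknown, and a gene without a peak may be one that is little expressed; the part of expression in any share given here was not tested.

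Longer genes offer more sequence to a peak, so the share of all protein-coding genes was weighted to the exonic lengths of the members in 20 bins of length. At these lengths 31.3% of all genes had a peak in both lists, 40.4% in replicate 1 and 32.0% in replicate 2. The members' 45.5% was above each of these, and its interval held the value for replicate 1 but not the other values. With bins of transcript length in place of exonic length the share of all genes was 37.1%, which lies inside the interval. With a best fold enrichment of 5 or more in both lists, 23 members (34.8%, interval 24.5% to 46.9%) remained, against 19.3% of all genes and 17.6% at the members' lengths. FOX genes had a peak in 22 of 47 cases (46.8%, interval 33.3% to 60.8%, against 30.6% of all genes at their lengths). SOX genes had one in 8 of 19 cases (42.1%, interval 23.1% to 63.7%, against 32.9%), an interval that spans the share of all genes.

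**Figure D1:**
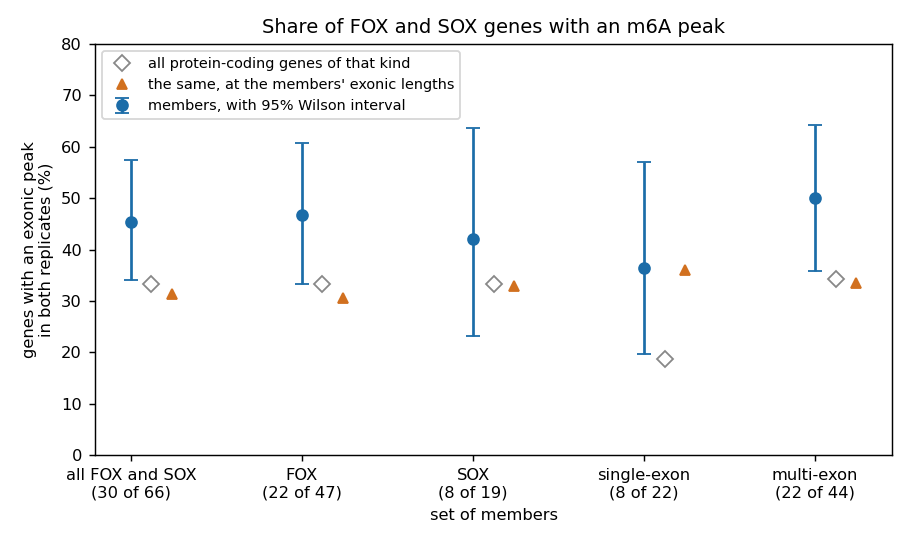
Share of genes with an exonic peak in both replicates (%), for all members, FOX, SOX, single-exon and multi-exon members. Dots are the members with 95% Wilson intervals, diamonds all protein-coding genes (of the same exon class in the last pair of sets) and triangles the same at the members' exonic lengths; the single-exon members stand at 36.4% beside a triangle at 36.1%, and the multi-exon members at 50% beside one at 33.4%.

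Many FOX and SOX genes have a single exon, and the classes were therefore set apart. Of the 22 single-exon members, 8 had a peak in both lists (36.4%, interval 19.7% to 57.0%), compared with 18.8% of all 1144 single-exon genes. Single-exon members were long for their class, with a median exonic length of 2828 nt against 1291 nt. When single-exon genes were weighted to the members' lengths their share rose to 36.1%, next to the members' 36.4%. The least filled of the length bins used held 6 genes. Of the 44 multi-exon members, 22 had a peak (50%, interval 35.8% to 64.2%), compared with 34.2% of all multi-exon genes and 33.4% at the members' lengths. Against genes of any exon number, however, the single-exon members stood above the share at their lengths, 26.6%. The comparison for single-exon members thus depends on which genes it is made with, and no difference between the exon classes was tested. Members of 2 to 4 exons had a peak in 12 of 25 cases (48%, against 31.8% of all such genes). Members of 5 or more exons had one in 10 of 19 (52.6%, interval 31.7% to 72.7%, against 35%). Among genes of any exon number, the share was 28.2% at the lengths of the former members and 40.9% at those of the latter. The interval for members of 5 or more exons spans both 35% and 40.9%. That for members of 2 to 4 exons spans 31.8% and lies just above 28.2%. By family, 4 of 14 single-exon FOX genes (28.6%, against 23.8% of genes of any exon number at their lengths) and 18 of 33 multi-exon ones (54.5%, against 33.5%) had a peak. In SOX the order was the other way, with 4 of 8 single-exon genes (50%, against 31.4%) and 4 of 11 multi-exon ones (36.4%, against 34.0%). The intervals of single-exon and multi-exon genes overlap in FOX (11.7% to 54.6% and 38.0% to 70.2%). They also overlap in SOX (21.5% to 78.5% and 15.2% to 64.6%). Members with a peak were longer, with a median exonic length of 4771 nt (2017 to 32800 nt) against 2852 nt (1087 to 20093 nt) in members without.

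The FOX subfamilies, which are named by the letter after FOX, differed in how many of their members had a peak. Of 19 subfamilies, 6 had a peak in every member, 7 in none and 6 in some. FOXA (FOXA1, FOXA2 and FOXA3, pioneer factors of endoderm and liver), FOXK (FOXK1 and FOXK2, regulators of metabolism and autophagy genes), FOXO (FOXO1, FOXO3, FOXO3B, FOXO4 and FOXO6), and the single genes FOXH1 (a SMAD partner in nodal signalling), FOXM1 (an activator of mitotic genes) and FOXQ1 (an epithelial factor) made up the first class. Of these, the only peak of FOXH1 also lay in an exon of KIFC2, so the gene it came from cannot be told apart. Most FOXO3B peaks match FOXO3 sequence, as given below, so whether FOXO3B itself carried a peak is uncertain.

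Among the members without a peak were FOXB1, FOXB2, FOXE1, FOXE3, FOXF1, FOXF2, FOXI1, FOXI2, FOXI3, FOXR1, FOXR2 and FOXS1, factors best known from particular developing tissues such as thyroid (FOXE1), lens (FOXE3), gut mesenchyme (FOXF1, FOXF2) and inner ear (FOXI1). Within the mixed subfamilies the peak was in FOXC1 and not FOXC2, in FOXD2 and not FOXD1, FOXD3 or FOXD4, in FOXJ2 and FOXJ3 and not in FOXJ1, the factor of motile cilia, and in FOXL1 and not FOXL2, FOXL2NB or FOXL3. FOXN2 and FOXN3, known as a checkpoint suppressor, carried peaks whereas FOXN1, the factor of the thymic epithelium, and FOXN4 did not. FOXP1 and FOXP4 carried peaks whereas FOXP2, known from speech circuits, and FOXP3, the factor of regulatory T cells, did not.

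No SOX group had a peak in every member. The 8 groups gave 6 with a peak in some members and 2 with none. In group B1, which keeps embryonic and neural progenitors, SOX2 carried peaks and SOX1 and SOX3 did not. In group B2, the counterpart repressors, SOX21 did and SOX14 did not. SOX4 and SOX12 of group C had peaks and SOX11 had none. In group D, SOX13 had peaks, and SOX5 and SOX6, partners in cartilage formation, had none in exons. In group E, SOX8 and SOX9, a factor of cartilage, testis and progenitors of the gut, had peaks, and SOX10, a neural crest factor, had none. In group F, SOX7 had a peak and SOX17, the endoderm factor, and SOX18 had none. SOX15 and SOX30, each alone in its group, had none.

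**Figure D2:**
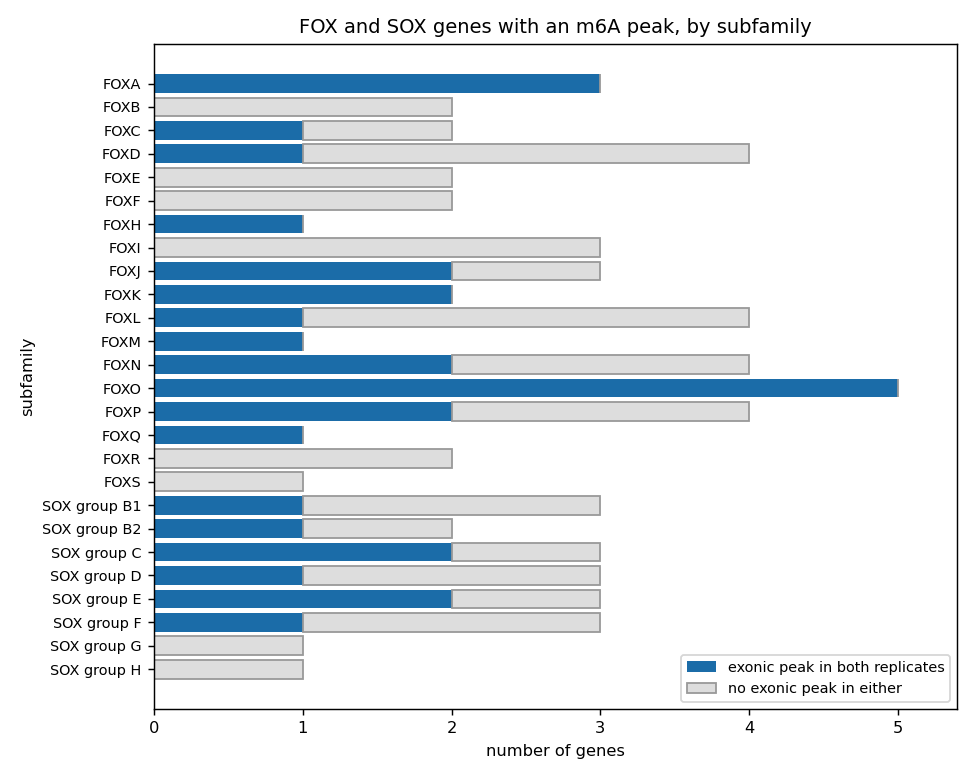
Number of FOX and SOX genes per subfamily with an exonic peak in both replicates (blue) and with no exonic peak in either (grey), for 18 of the 19 FOX subfamilies and all 8 SOX groups. FOXO has a peak in 5 of 5 genes, among them FOXO3B, whose peaks mostly match FOXO3 sequence. FOXA has one in 3 of 3, whereas FOXI has one in 0 of 3 and FOXD in 1 of 4.

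Among the 30 genes with a peak, the strongest peak ranged from 3.65 (FOXQ1) to 19.4 (FOXN2) in replicate 1 and from 2.58 (FOXH1) to 15.2 (FOXN2) in replicate 2. The median best fold enrichment of the members was 8.38 in replicate 1 and 6.35 in replicate 2, beside 7.83 and 5.72 over all protein-coding genes with a peak in both lists. Replicate 1 was higher in 27 of 30 members (90%), and in 83.2% of all such genes, with a median log2 ratio of 0.39 for members and 0.46 for all. The order of the members was alike in the lists (Pearson's r = 0.886 and Spearman's rho = 0.856 for log2 fold enrichment across 30 genes, beside 0.716 and 0.701 across 6686 genes). These correlations are across genes, which are not independent replicates, and both lists share the cell line and the assay. In geometric mean over the replicates FOXN2 lay at the 99.1st percentile of all genes with a peak in both lists, FOXO1 at the 98.9th, FOXL1 at the 94.8th and FOXP1 at the 94.0th, while the median member lay at the 55.3rd.

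**Figure D3:**
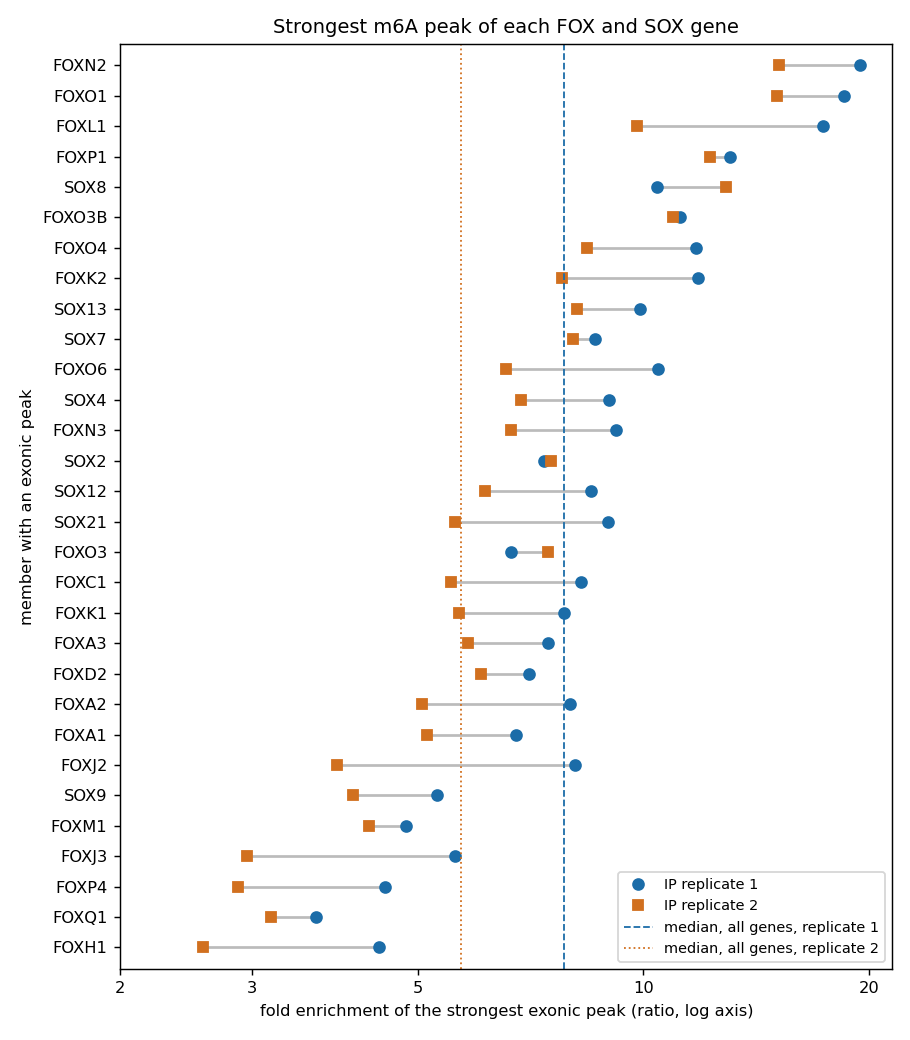
Fold enrichment of the strongest exonic peak of each of the 30 members with a peak (ratio, log axis), in IP replicate 1 (circles) and IP replicate 2 (squares), ordered by geometric mean. Dashed and dotted lines are the medians over all protein-coding genes with a peak in both lists, 7.83 and 5.72. FOXN2 and FOXO1 lead in both replicates, and SOX8, FOXO3 and SOX2 are the genes in which replicate 2 is higher.

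FOXN2 had the strongest peak. It lay in exon 3, in coding sequence ahead of the forkhead, at chr2:48346261-48346639 in replicate 1 and chr2:48346259-48346601 in replicate 2. Its fold enrichment was 19.4 and 15.2 (−log10 q of 89.3 and 83.8), and the summits were 5 bp apart. A second FOXN2 peak, in the last exon 115 nt and 119 nt before the stop codon, had a fold enrichment of 10.7 and 8.63 (−log10 q of 42.6 and 38.8). Both replicates thus placed FOXN2 peaks at the same 2 positions, with a lower value in replicate 2 at each.

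The related gene FOXN3 was enriched at a like place. Its strongest peak, 9.20 in replicate 1 and 6.65 in replicate 2, had its summit in exon 2 at residues 88 and 92, 26 and 22 residues before the forkhead motif. In FOXN2 the summit was at residues 69 and 67, 43 and 45 residues before that motif. This likeness, like those of the FOXA and FOXO genes that follow, was picked out after the values were seen.

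Next, the FOXO factors, which drive stress resistance and cell cycle exit when AKT is off, were examined. FOXO1 had its strongest peak past the stop codon in the last exon, at chr13:40558698-40558972 and chr13:40558737-40558951, with a fold enrichment of 18.5 and 15.1 (−log10 q of 44.3 and 43.6). The summits lay 186 nt and 207 nt past the stop codon, one just inside and the other just outside the window of 200 nt. A second, wide peak in exon 2 (chr13:40559538-40560794 and chr13:40559567-40560752) had 16.4 and 8.80 (−log10 q of 49.8 and 36.0), with summits 446 bp apart, and it also lay in an exon of the unnamed gene ENSG00000288542. Weaker FOXO1 peaks lay in exon 1. There the pair of overlapping peaks had 5.43 and 4.17 (−log10 q of 14.1 and 10.4), and a further peak of replicate 1 had 3.90 (−log10 q of 5.68).

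FOXO3, a paralog of FOXO1, had its strongest peak at a like place. The summits lay 168 nt and 170 nt past its stop codon, also in the last exon, at chr6:108679760-108680219 and chr6:108679736-108680250. Here replicate 2 was the higher, with 7.46 against 6.65 (−log10 q of 47.1 and 42.2), and the ratio of replicate 1 to replicate 2 was 0.891. Further FOXO3 peaks were found in both lists in the 5′ UTR (3.96 and 3.53, −log10 q of 7.83 and 6.35), at the start of the coding sequence (4.66 and 2.90, −log10 q of 26.4 and 13.2), in exon 3 (5.77 and 3.80, −log10 q of 36.6 and 25.2) and far down the 3′ UTR (5.36 and 3.64, −log10 q of 13.9 and 8.01). In replicate 2 a peak inside the forkhead (2.42, −log10 q of 4.11) was split off, so that FOXO3 had 5 peaks in replicate 1 and 6 in replicate 2.

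FOXO3B, a shortened copy of FOXO3 on chromosome 17, had its strongest peak in its 3′ UTR at chr17:18670947-18671264 and chr17:18670941-18671850, with 11.2 and 10.9 (−log10 q of 38.7 and 42.3). Its other peaks had 7.83 (−log10 q of 21.3), 5.48 (4.29) and 4.45 (7.70) in replicate 1 and 6.15 (11.1) and 4.14 (7.24) in replicate 2. The peak with 5.48 also lay in an exon of ZNF286B. The other FOXO3B peaks aligned to exons of FOXO3 with 98.6% to 100% identity over the aligned part. That part was 699 of 869 bp in 1 peak of replicate 1 and 290 of 432 bp in 1 of replicate 2, and all or all but 1 bp in the rest, so reads of either copy could have been placed there, and the values of FOXO3 and FOXO3B are uncertain.

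FOXO4 carried its strongest peak in the 5′ UTR of exon 1, unlike FOXO1, FOXO3 and FOXO3B. This peak lay at chrX:71096181-71096999 and chrX:71096216-71097049, with 11.8 and 8.40 (−log10 q of 36.1 and 32.0) and summits 7 bp apart. A second FOXO4 peak at the end of the forkhead had 4.58 and 3.64 (−log10 q of 11.2 and 8.01). FOXO6, the brain member, had 3 peaks and 2 peaks in the respective lists. The strongest of replicate 1 (chr1:41361578-41362182, 10.5, −log10 q of 15.7) had its summit in a first exon outside the longest-coding transcript (the annotated transcript with the most coding sequence), and the overlapping peak of replicate 2 had 3.51 (−log10 q of 2.77). The strongest of replicate 2 (chr1:41381680-41381907, 6.56, −log10 q of 7.23) lay after the forkhead and overlapped a peak of replicate 1 with 6.72 (−log10 q of 7.39). A peak 54 nt before the stop codon was in replicate 1 only (5.68, −log10 q of 4.59). For FOXO6 the replicates thus ranked different peaks first.

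Of the other FOX genes, FOXL1, a factor of gut and bone mesenchyme, had a single wide peak in each list, at chr16:86578573-86580152 and chr16:86578588-86579659, with 17.4 and 9.82 (−log10 q of 29.6 and 14.3). The peaks overlapped, but the summits were 935 bp apart, 153 nt before the stop codon in replicate 1 and in the 5′ UTR in replicate 2. FOXL1 had the third largest ratio of best fold enrichment between the replicates, 1.77. FOXP1, a repressor in lung, gut and lymphoid cells, had a single peak, at chr3:70958822-70959395 and chr3:70958816-70959235, with 13.1 and 12.3 (−log10 q of 31.9 and 22.2) and summits 19 bp apart. The summits lay outside the longest-coding transcript, in the last exon of 6 other coding transcripts, 352 nt and 333 nt past their stop codon. FOXP1 had the longest exonic sequence of the members with a peak, 32800 nt, of which the peaks covered 1.74% and 1.28%.

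FOXK2 had its strongest peaks in its 3′ UTR. The strongest of replicate 1 (chr17:82602970-82603597, 11.8, −log10 q of 37.1) overlapped one of 6.85 in replicate 2 (−log10 q of 24.9), 1604 nt and 1594 nt past the stop codon, in sequence shared with an exon of the unnamed gene ENSG00000261845. The strongest of replicate 2 (chr17:82601277-82602582, 7.78, −log10 q of 86.5) overlapped one of 7.23 in replicate 1 (−log10 q of 68.8), and the summits were 1 bp apart, 285 nt and 286 nt past the stop codon. Further pairs in exons of other FOXK2 transcripts had 6.53 and 5.01 (−log10 q of 9.01 and 6.89) and 5.02 and 4.46 (7.28 and 7.46). Another 4 FOXK2 peaks were in replicate 1 only, with 1.94 (−log10 q of 3.75), 4.50 (13.3), 4.36 (6.35) and 4.40 (6.06). Its paralog FOXK1 had 9 peaks in replicate 1, the most of any member, and 2 in replicate 2. Both peaks of replicate 2, 5.66 and 5.48, were in the 3′ UTR, and the peaks of replicate 1 that overlapped them, 7.85 and 7.06, were the strongest of that list, so the additional FOXK1 peaks of replicate 1 were weaker ones of 2.30 to 4.17.

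By the ratio of the best fold enrichments, replicates differed most in the FOXJ genes. Single overlapping peaks could differ more, such as that of FOXO6 with 10.5 and 3.51. FOXJ2, a widely expressed activator, had 8.11 in replicate 1 and 3.90 in replicate 2 at overlapping 5′ UTR peaks (chr12:8032736-8033736 and chr12:8032754-8033623, −log10 q of 34.4 and 16.8), a ratio of 2.08. Further FOXJ2 peaks of 4.02 (−log10 q of 5.28) and 3.58 (−log10 q of 5.51) were in replicate 1 only. FOXJ3 had 5.61 and 2.96 (chr1:42179467-42179761 and chr1:42179485-42179745, −log10 q of 9.77 and 5.32), a ratio of 1.90, with summits 167 nt and 152 nt past the stop codon. Position thus agreed within 15 bp in FOXJ3 while fold enrichment did not.

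Among the SOX genes, SOX8 was the strongest. Its main peak had 10.4 in replicate 1 and 12.9 in replicate 2 (chr16:984664-985961 and chr16:985073-985945, −log10 q of 27.8 and 32.0). The summit moved from 26 nt before the stop codon to 421 nt past it, 447 bp apart. The ratio of replicate 1 to replicate 2, 0.808, was the lowest of all members. Peaks of 6.97 (−log10 q of 10.3) and 5.48 (4.29) in SOX8 were in replicate 1 only. SOX9, in the same group, had 5.31 and 4.09, with summits 194 nt and 256 nt past the stop codon.

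SOX13 was enriched near its stop codon, 51 nt and 38 nt past it, with 9.90 and 8.16 (chr1:204125853-204126528 and chr1:204125945-204126464, −log10 q of 71.4 and 68.0). A 5′ UTR peak had 4.10 and 3.13 (−log10 q of 14.5 and 7.40), and a pair of 3′ UTR peaks had 2.99 and 1.87 (8.23 and 1.59) and 2.66 and 2.23 (3.50 and 1.66). The 3 SOX13 peaks in shorter inner exons, of 2.57 (−log10 q of 3.18), 2.89 (6.64) and 3.0 (4.87), were in replicate 1 only. SOX7, a factor of endothelium and early endoderm, had a single peak in its last exon (chr8:10725760-10726502 and chr8:10725836-10726513) with 8.63 and 8.06 (−log10 q of 15.4 and 12.1). It also lay in an exon of PINX1, so the gene it came from cannot be told apart.

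SOX4, which is active in many carcinomas, was covered by 1 peak of 3135 bp in replicate 1 (chr6:21593807-21596941, 9.0, −log10 q of 69.0) and by 2 peaks in replicate 2 (chr6:21593824-21594946, 3.99, −log10 q of 30.3, and chr6:21595179-21596932, 6.87, −log10 q of 67.5). The main summits, late in the coding sequence, were 7 bp apart. SOX2, a stem cell factor, had 7.36 and 7.53 (chr3:181712551-181713557 and chr3:181712839-181713529, −log10 q of 22.5 and 23.0) with summits 185 nt and 161 nt before the stop codon, and weaker peaks of 4.76 and 3.49 (−log10 q of 3.70 and 3.10) upstream. SOX2 was the third gene, after SOX8 and FOXO3, in which replicate 2 was higher, with a ratio of 0.978.

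Best fold enrichments of the other members were as follows. SOX12, which like SOX2 and SOX4 has 1 exon, had 8.50 and 6.14, and SOX21 had 8.98 and 5.60 in different peaks. FOXC1, an intronless mesoderm factor, had 8.25 and 5.53, and FOXD2 had 7.03 and 6.07. The endoderm factors FOXA1, FOXA2 and FOXA3 had 6.76 and 5.14, 7.98 and 5.06, and 7.45 and 5.83. These 3 paralogs were thus alike, near the medians of all genes with a peak in both lists. FOXM1 had 4.81 and 4.31, FOXP4 had 4.52 and 2.88, FOXQ1 had 3.65 and 3.18, and FOXH1 had 4.43 and 2.58, which puts the proliferation factor FOXM1 and the epithelial factor FOXQ1 among the 5 lowest by geometric mean.

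The positions of all member summits were then compared with those of other genes, on the longest-coding transcript. The members held 85 exonic summits in replicate 1 and 64 in replicate 2, of which 80 and 61 lay on that transcript. Summits within 200 nt of the stop codon made up 17.5% (interval 10.7% to 27.3%) in replicate 1 and 19.7% (11.6% to 31.3%) in replicate 2, against 24.5% and 27.1% over all protein-coding genes. The rest of the 3′ UTR held 28.8% (20% to 39.5%) and 26.2% (16.8% to 38.4%), against 18.0% and 19.7%. Coding sequence held 42.5% and 44.3%, against 48.6% and 47.5%, and the 5′ UTR 11.3% and 9.84%, against 8.88% and 5.72%. Summits of 1 gene are not independent, and FOXK1 and FOXK2 alone gave 10 of the 23 summits of the 3′ UTR in replicate 1 and 4 of the 16 in replicate 2. Without these genes the 3′ UTR held 20% and 21.1%, next to the shares of all genes, and the stop codon window 21.5% and 21.1%. By genes, 14 members had a summit in the stop codon window in replicate 1 and 12 in replicate 2, FOXN2, FOXA2, FOXJ3, FOXP4, FOXO3, SOX2, SOX12 and SOX13 in both.

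**Figure D4:**
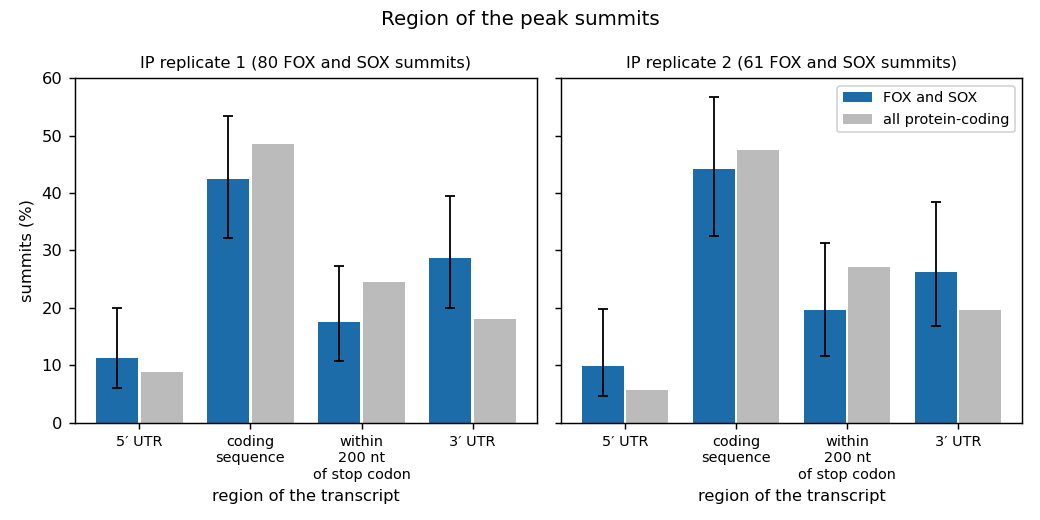
Share of peak summits (%) by region of the longest-coding transcript, for FOX and SOX genes (blue, with 95% Wilson intervals) and all protein-coding genes (grey), per IP replicate; the 5′ UTR, coding sequence and 3′ UTR exclude the stop codon window. Near the stop codon stand 17.5% and 19.7% of FOX and SOX summits beside 24.5% and 27.1% of all summits, and in both replicates the interval spans the grey bar.

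Peaks on the members were wide. Their median width of 495 bp and 518 bp (replicates 1 and 2) stood against 318 bp and 367 bp over all protein-coding genes, and 22.4% and 23.4% of them were 1000 bp or wider, against 9.42% and 10.3%. In the single-exon members 6 of 12 (50%) and 6 of 15 peaks (40%) were that wide, beside 37.6% and 35.1% in all single-exon genes. In the multi-exon members 17.8% and 18.4% were, beside 8.85% and 9.62%. Peaks covered 85.5% and 71.6% of the exonic length of FOXQ1, 83.9% and 66.8% of FOXA2, 78.6% and 68.9% of FOXA3, 66.2% and 60.8% of FOXC1, and 64.4% and 59.1% of SOX4, whereas the median member with a peak was covered to 37.0% and 25.8%. In FOXC1 a single peak of 2635 bp in replicate 1 was met by 2 peaks in replicate 2. In these genes the summit is a single point of a broad enriched region.

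Member summits lay in long exons. The median exon length was 2279 nt and 2648 nt, against 1061 nt and 1564 nt over all protein-coding genes, and 62.5% and 70.5% of the summits were in a last exon, against 50.4% and 59.2%. A single exon counts as a last exon and enters at its whole length. Over multi-exon genes alone, the median exon length at member summits was 1886 nt and 1934 nt, against 1019 nt and 1514 nt. Of these member summits 55.9% and 60.9% were in a last exon, against 49.3% and 58% of all, so these shares were close in replicate 2. In multi-exon members the summit was a median of 413 nt and 469 nt from the nearest junction, against 232 nt and 298 nt, and 10 (14.7%) and 3 (6.52%) lay within 100 nt of it, against 19.0% and 8.68%. The FOXA genes gave 3 of these 10 summits and 2 of these 3. In each of them a peak summit lay in the short first exon just before its 3′ end, 21 nt and 6 nt from the junction in FOXA1, 16 nt and 0 nt in FOXA2, and 18 nt in FOXA3, where it was found in replicate 1 only. These are residues 17 to 29 of the proteins, and the fold enrichment was 6.76 and 4.35 in FOXA1, 7.0 and 2.63 in FOXA2, and 7.25 in FOXA3.

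The base composition under the summits differed from that of other genes. Within 50 nt of the summit the median GC content was 65.3% in replicate 1 and 64.4% in replicate 2, against 59.4% and 56.4%. GGAC on the strand of the gene was found within 50 nt of 39 of 85 summits (45.9%, interval 35.7% to 56.4%) and 28 of 64 (43.8%, 32.3% to 55.9%), against 49.7% and 51.7% of all exonic summits in protein-coding genes. Both intervals span the share of all genes. Among others, SOX12, FOXN3, FOXP4 and SOX2 had GGAC at their strongest summits in both lists, and FOXN2, FOXA1, FOXJ3 and SOX4 had none within 50 nt of any summit. The absence of these letters says nothing about other motifs.

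To see whether peaks fell on the sequence that defines the families, summits in coding sequence were set against the DNA-binding domain. The domain was taken as 95 residues from a forkhead motif (KPPYSY or a variant with up to 2 mismatches) and as 70 residues from the HMG box motif (RPMNAFMVW). In replicate 1, 13 of 41 summits lay before the domain, 3 inside and 25 after it, and in replicate 2, 11 of 33 before, 6 inside and 16 after. The domain makes up 16.8% and 18.2% of the coding sequence behind these summits, and held 7.32% and 18.2% of them. Of the FOX summits 2 of 31 and 2 of 25 were inside, where the domain makes up 17.2% and 17.9% of the coding sequence. Of the SOX summits 1 of 10 and 4 of 8 were inside, where it makes up 15.3% and 19.5%. The SOX summits inside were those of SOX12 in both lists and of SOX2, SOX4 and SOX21 in replicate 2.

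Coverage by peaks gave a like picture over the 30 genes. Peaks covered 52.2% of the domain bases and 60.9% of the other coding bases in replicate 1, and 48.0% and 46.4% in replicate 2, so the sign of the difference changed between replicates. The domain was covered in full in both lists in FOXA1, FOXA2, FOXA3, FOXC1, FOXL1, FOXQ1, SOX4, SOX12 and SOX21. It held no peak in 10 members in replicate 1 and 12 in replicate 2, among them FOXK1, FOXK2, FOXM1, FOXP1 and SOX13. For SOX21 the covering peak of replicate 1 had its summit outside the gene, 1476 bp from that of replicate 2.

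**Figure D5:**
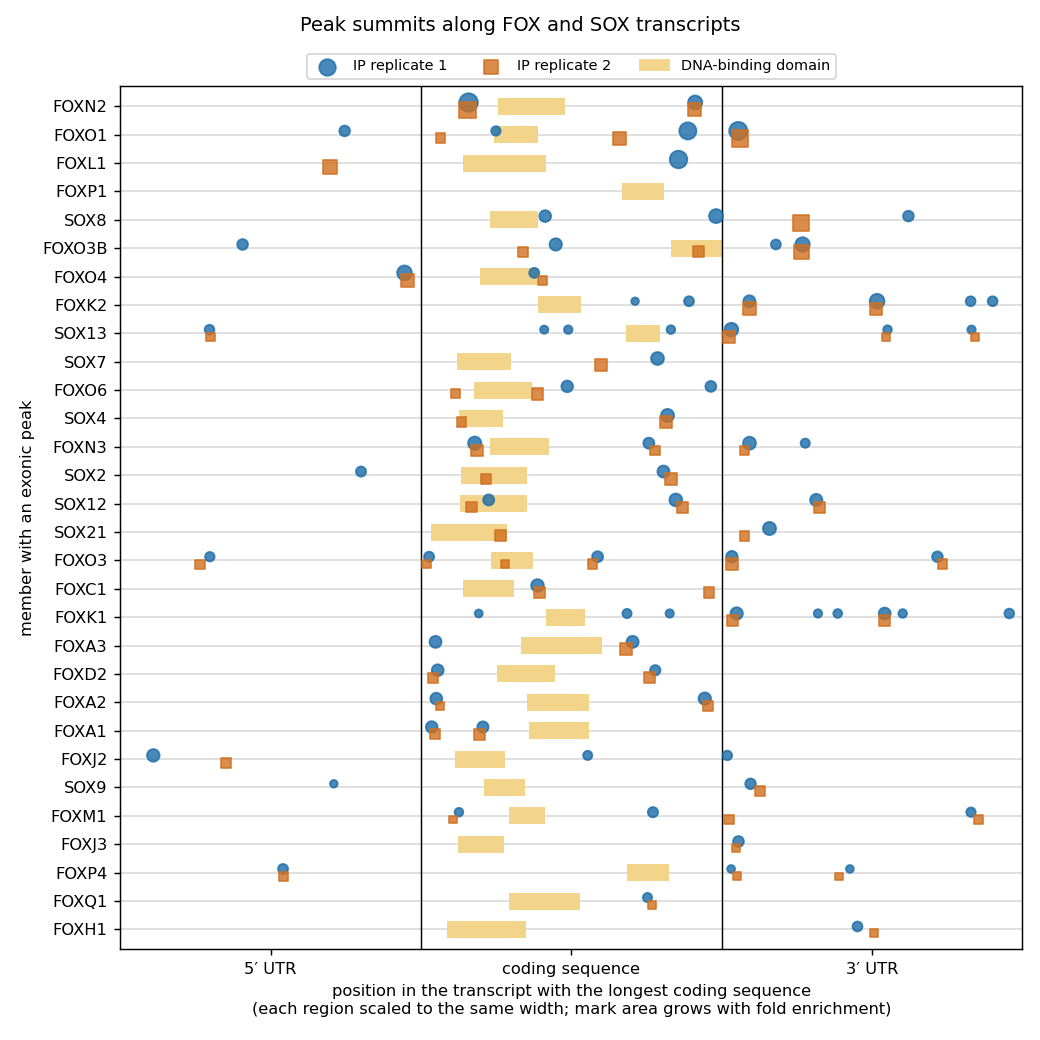
Peak summits of the 30 members along the longest-coding transcript, each region scaled to the same width; circles are IP replicate 1 and squares IP replicate 2, mark area grows with fold enrichment, and the yellow bar is the DNA-binding domain. The 5 summits of replicate 1 and 3 of replicate 2 that lie outside that transcript, FOXP1's among them, are not drawn; FOXN2 and FOXN3 have a strong summit just before the domain, and FOXO1 and FOXO3 just past the coding sequence.

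Peaks of the members were then compared between the replicates. Of the 64 peaks of replicate 2, 64 overlapped a peak of replicate 1, and of the 85 of replicate 1, 60 (70.6%) overlapped one of replicate 2. Over all protein-coding genes, 95.9% of exonic peaks of replicate 2 and 60.5% of those of replicate 1 were shared in this way. The 25 found in replicate 1 only had a median fold enrichment of 3.62, against 6.88 for the shared ones (3.94 and 6.47 over all protein-coding genes). The strongest peaks of the lists overlapped in 25 of 30 members (83.3%), with a median summit distance of 19 bp, beside 76.7% and 24 bp over the 6686 genes. They were different peaks in FOXA1, FOXD2, FOXK2, FOXO6 and SOX21, and overlapped with summits over 200 bp apart in FOXJ2, FOXL1, FOXM1, SOX7 and SOX8. Members had a mean of 2.83 and 2.13 exonic peaks per gene with a peak, against 2.28 and 1.84 over all genes.

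Finally, related gene lists were set beside the members. Of 25 other HMG-box genes, 11 (44%) had an exonic peak in both lists, against 39.9% of all genes at their lengths. They included the Wnt effectors LEF1 (12.1 and 5.20), TCF7 (9.16 and 4.16) and TCF7L2 (7.26 and 2.53) and the repressor CIC (6.94 and 5.95), and not TCF7L1 or SRY. Of 28 cofactors and regulators of FOX and SOX proteins, 17 (60.7%) had one, against 43.2% at their lengths. Among these, the ubiquitin ligase subunit FBXW7 (22.2 and 17.0) was strong. The gut factors differed: GATA4 (18.0 and 11.1) and CDX2 (13.3 and 6.62) were strong, whereas GATA6 had 5.65 and 3.71 and CDX1 had no peak. KLF5 (2.66 and 2.31) and the kinases AKT1 (2.91 and 2.13) and AKT2 (4.33 and 3.10) were weak, and SGK1 and SGK3 had no peak.

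Other transcription factor families gave shares on both sides of the members' 45.5%. Of 31 KLF, SP and EGR genes (KLF5 is also among the cofactors), 19 (61.3%, interval 43.8% to 76.3%) had a peak in both lists, against 34.5% at their lengths, with a median best fold enrichment of 7.01 and 4.38. Of 39 HOX genes, 16 (41.0%, interval 27.1% to 56.6%) had one, against 23.4% at their lengths, with 7.27 and 5.60. The FOX and SOX medians, 8.38 and 6.35, were higher than those of either family, but all intervals of the shares overlap, and no difference between the families was tested.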

How the data were processed

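Peak lists of 2 m6A IP samples of OE-19 cells were analysed, grouped by the sample labels. Per the study's methods the authors used TopHat2 for alignment to hg38 and default MACS2 for peak calling, whereas the submitters' processing notes name fastp, HISAT2 and MACS2. Tool versions, and whether the input served as control, are not given in the sources used here. The authors deposited, for each peak, a fold enrichment (a ratio over the caller's background), its p-value and q-value as −log10, and an integer score. The score and p-value were not used. The deposited lists hold 24607 and 19318 peaks with q up to 0.0491 and 0.0497 and no strand, so a summit in exons of several protein-coding genes was given to each.

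Genes came from GENCODE 44. The 24 chromosome names matched the reference, and 0 peaks ran past a chromosome end. Regions, exon numbers and domains used the longest-coding transcript (the one with the most coding sequence), and the stop codon window reached 200 nt to either side. Shares of all genes were weighted to the members' exonic length in 20 bins. Peaks were shared if they overlapped by 1 bp. Members were named, apart from results that are not reported here. Full values were given for the 12 with the largest geometric mean of best fold enrichment and the 3 with the largest and 3 with the smallest ratio between replicates. Sequences were given for the leading 6 outside chromosome 8. The members, lists and alternatives were chosen with earlier results of these data known. No test was run. The scripts were tested on simulated data. Depth is unknown, since no read numbers are given, so the number of peaks limits the precision. Python 3.11.15, numpy 2.4.6, pandas 2.3.3, scipy 1.17.1, pysam 0.24.0, Biopython 1.88 and matplotlib 3.10.9 were used.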

Additional observations from a re-analysis of the deposited data

Results flagged for a closer look

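Peaks with a summit in an intron of a member were not used in the counts of exonic peaks. There were 7 such peaks in replicate 1, in 4 genes, and 11 in replicate 2, in 5 genes, and no list of the input samples was analysed with which to compare them. Only 1 position, in FOXK2, was found in both lists (5.94 and 2.87), whereas 60 of 85 and 64 of 64 exonic peaks were shared. SOX5 and SOX6, which had no exonic peak, held 4 intronic peaks each in replicate 2, and SOX6 held 2 others in replicate 1. In replicate 2, fold enrichment was 4.23 with a −log10 q of 2.34 at 3 different positions of SOX5 and SOX6, and 5.71 with 4.70 at 3 more. FOXP2, also without an exonic peak, held 1 intronic peak of 7.98 in replicate 2. FOXN3 held 3 in replicate 1, of 4.59 to 7.90.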

How the results depend on the processing

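Of 79 alternative values of the main results, 74 stayed within the limits used and 5 moved beyond them. For a count the limit was a fixed ratio to the main count, wide enough that 23 members against 30 passed. For a share it was the Wilson interval of the main share, and for a median the standard deviation of the 2 replicate medians. For the share of all genes at the members' lengths, that interval was computed with the 66 members as its number. It was thus wide enough that 40.4% against 31.3% passed. With a stop codon window of 100 nt the share of member summits in it was 6.25% in replicate 1 and 8.20% in replicate 2, and with 400 nt it was 33.8% and 34.4%, as the wider or narrower window itself brings about. With a fold enrichment of 5 or more, the share of all genes at the members' lengths fell to 17.6%, and 23 members were left. The count of members was 30 with q of 0.01 or less, with q of 1e-05 or less and with an equal number of peaks per list, 29 with peaks placed by midpoint and 28 without summits in exons of several genes. It was 30 in either replicate alone, and the share of all genes at the members' lengths was then 32.0% and 40.4%. Leaving out FOXL2NB and FOXO3B, chosen after seeing the data, gave 29 members. With single-exon genes defined by 1 exon in every protein-coding transcript, 7 single-exon and 23 multi-exon members had a peak in both lists. Taking the best peak by q changed FOXD2 (5.01) and FOXK2 (7.23) in replicate 1. None of the other 58 values changed by more than the standard deviation between the replicates of that gene. No paired analysis was possible because the results come from no test and no list of the input samples, which share the replicate numbers, was analysed here; whether the input entered the fold enrichment is not stated.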

Other observations

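Long non-coding RNAs named after the members, such as antisense and divergent transcripts, were listed after the annotation was seen. Of 19, SOX21-AS1 had an exonic peak in both lists (8.13 and 9.50), next to SOX21, which itself had 8.98 and 5.60. FOXD2-AS1 (6.14), FOXP4-AS1 (3.14) and SOX9-AS1 (4.57) had one in replicate 1 only, and the remaining 15, among them SOX2-OT and FOXD3-AS1, had none in exons. Without strand in the lists, signal from an antisense transcript and from the gene it overlaps cannot be told apart.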
